A study of Mus musculus with 39 samples.

Results

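The circadian clock genes are a set of 10 genes taken by name: Arntl, Clock, Per1, Per2, Per3, Cry1, Cry2, Nr1d1, Nr1d2 and Dbp. They were matched by symbol to Ensembl rows of the count table, 10 of 43430 genes, and all 10 passed the filter on low counts in every fit. RNA was sequenced from cells sorted by flow cytometry from lungs of C57BL/6J mice, with no engineered allele named in the labels. Lung monocytes from naive mice, which had no bleomycin, gave 20 libraries. Macrophages of the alveoli that derive from monocytes, sorted as low in Siglec F, gave 19, taken 21 days after bleomycin, which causes lung injury followed by scarring. Mice were young (8 to 12 weeks in the sample labels, 3 to 5 months in the series text) or old (over 18 months in the labels, 18 to 24 months in the series text). They received saline or ISRIB, an inhibitor of the integrated stress response, and this treatment began on day 7 in the bleomycin mice; no schedule is given for the naive mice. The series text sets no monocytes apart as naive; the sample labels were followed. The 8 groups had 5 libraries each, apart from 4 for young ISRIB macrophages. The labels do not say whether each library came from 1 mouse, so p-values measure the spread between these libraries. No label gives the hour, the date or the order in which cells were collected.

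The clock is a feedback loop that runs in nearly every cell with a period close to a day. The proteins of Arntl (BMAL1) and Clock bind E-boxes in DNA as a pair and switch on the Per, Cry, Nr1d and Dbp genes; the PER and CRY proteins then block that pair, and the Nr1d1 and Nr1d2 proteins (REV-ERB alpha and beta) repress Arntl. The D-box factor DBP acts on Per genes further along the loop, and Per1 and Per2 are also switched on directly by glucocorticoids and by signals that induce immediate early genes. In lung and in myeloid cells these genes are known to rise and fall over the day, with Arntl peaking apart from Nr1d1 and Dbp. A difference in clock gene level between groups collected at an unknown hour therefore has more than 1 possible source, and a difference in collection time and a difference in regulation cannot be told apart in these files.

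The median library had 8628240 counts (lowest 4595331, highest 16056708). Summed levels of the marker list for monocyte-derived macrophages were 1157 to 3077 CPM (counts relative to library size, scaled by TMM factors) in monocyte libraries and 16304 to 34175 CPM in macrophage libraries. Nonclassical monocyte markers summed to 2683 to 7698 CPM in monocytes and 850 to 1228 CPM in macrophages. On these lists the libraries matched their labelled cell types. Classical monocyte markers did not separate the cells, at 10648 to 24688 CPM in monocytes and 13507 to 25804 CPM in macrophages. Neutrophil markers summed to 458 to 778 CPM in monocytes and 80.6 to 160 CPM in macrophages. B cell markers summed to 134 to 284 CPM in monocytes. All macrophages came from bleomycin-treated mice and all monocytes from naive mice, so the effects of cell type and of injury cannot be told apart. In bulk samples, fewer cells of a type and less RNA per cell cannot be told apart either.

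The DNA just before the start of the genes was searched for letters of the elements that clock factors are known to bind. RefSeq windows of 250 bases before the start (GRCm38.p6) were found for 9 of the 10 genes, 13 windows in all. Per2 had no window. A RefSeq start can lie inside the span of a gene given below, and both Per1 windows lie inside chr11:69095217-69109960. Both strands were read for the E-box CACGTG, the weaker E-prime box CACGTT, the D-box (TTATGTAA or TTACGTAA), the core of the REV-ERB element TAGGTCA and the cAMP response element TGACGTCA. The 4 windows below are shown because they hold the matches of a Per, a Cry and a Nr1d gene. Capitals mark the matches, and each line runs 5′ to 3′ on the strand of the gene: Per1 at chr11:69098699-69098948 (plus strand), Per3 at chr4:151044666-151044915 (minus), Cry1 at chr10:85185055-85185304 (minus) and Nr1d1 at chr11:98775378-98775627 (minus).
Per1: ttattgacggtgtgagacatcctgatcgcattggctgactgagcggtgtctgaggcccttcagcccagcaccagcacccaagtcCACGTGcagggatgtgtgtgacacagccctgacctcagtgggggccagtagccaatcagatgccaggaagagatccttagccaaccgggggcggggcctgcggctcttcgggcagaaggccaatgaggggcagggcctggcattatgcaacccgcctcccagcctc
Per3: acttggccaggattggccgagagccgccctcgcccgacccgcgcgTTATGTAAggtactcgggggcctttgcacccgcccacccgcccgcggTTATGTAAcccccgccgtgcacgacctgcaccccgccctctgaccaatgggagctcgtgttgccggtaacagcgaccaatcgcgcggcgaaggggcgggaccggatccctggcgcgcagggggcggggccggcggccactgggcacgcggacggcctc
Cry1: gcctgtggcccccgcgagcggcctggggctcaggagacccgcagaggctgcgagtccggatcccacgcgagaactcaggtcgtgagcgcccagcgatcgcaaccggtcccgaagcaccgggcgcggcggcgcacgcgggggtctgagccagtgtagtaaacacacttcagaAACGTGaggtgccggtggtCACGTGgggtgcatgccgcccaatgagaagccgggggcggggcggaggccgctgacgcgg
Nr1d1: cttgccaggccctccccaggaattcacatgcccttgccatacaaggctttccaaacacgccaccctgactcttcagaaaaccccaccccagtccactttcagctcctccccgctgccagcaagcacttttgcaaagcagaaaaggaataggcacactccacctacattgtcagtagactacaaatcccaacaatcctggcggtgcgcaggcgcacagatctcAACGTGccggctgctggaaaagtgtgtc
The Per1 window shown held an E-box 166 bases before its RefSeq start, and the other Per1 window held no match. Cry1 held an E-box at 60 and an E-prime box at 79 bases before the start, Nr1d1 an E-prime box at 28 bases, and Cry2 an E-prime box at 166 bases. Per3 held 2 D-boxes, at 205 and 158 bases before the start. Over all 32851 RefSeq windows, 6.02% held the E-box, 3.85% the E-prime box, 0.931% the D-box, 2.23% the REV-ERB core and 1.55% the cAMP element. The REV-ERB core and the cAMP element matched in 0 of the 13 windows of the clock genes, and the windows of Arntl, Clock, Nr1d2 and Dbp held no match to any of the motifs. A match describes letters in a short window, not a bound site.

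The first question was at what level each clock gene stood in the 2 kinds of cells. Compared per length of merged exons, Per1 was the most abundant of the 10 in both: 85.9 ± 23.5 CPM per kb in monocytes (SD, n = 20) and 20.1 ± 6.88 CPM per kb in macrophages (SD, n = 19). Cry1 followed at 9.86 ± 2.51 CPM per kb in monocytes and 6.57 ± 1.87 CPM per kb in macrophages. Clock stood at 5.08 ± 0.881 and 6.17 ± 0.638 CPM per kb, and Nr1d2 at 5.37 ± 2.00 and 3.75 ± 0.841 CPM per kb. The least abundant were Per3, at 0.270 ± 0.123 CPM per kb in monocytes and 0.504 ± 0.177 CPM per kb in macrophages, and Dbp, at 0.752 ± 0.406 and 0.499 ± 0.321 CPM per kb. Dbp rested on a median of 14 counts per library (1 to 36) and Per3 on 30 (3 to 104), so their values are coarse. Per1 rested on a median of 1903 counts (468 to 6676).

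**Figure D1:**
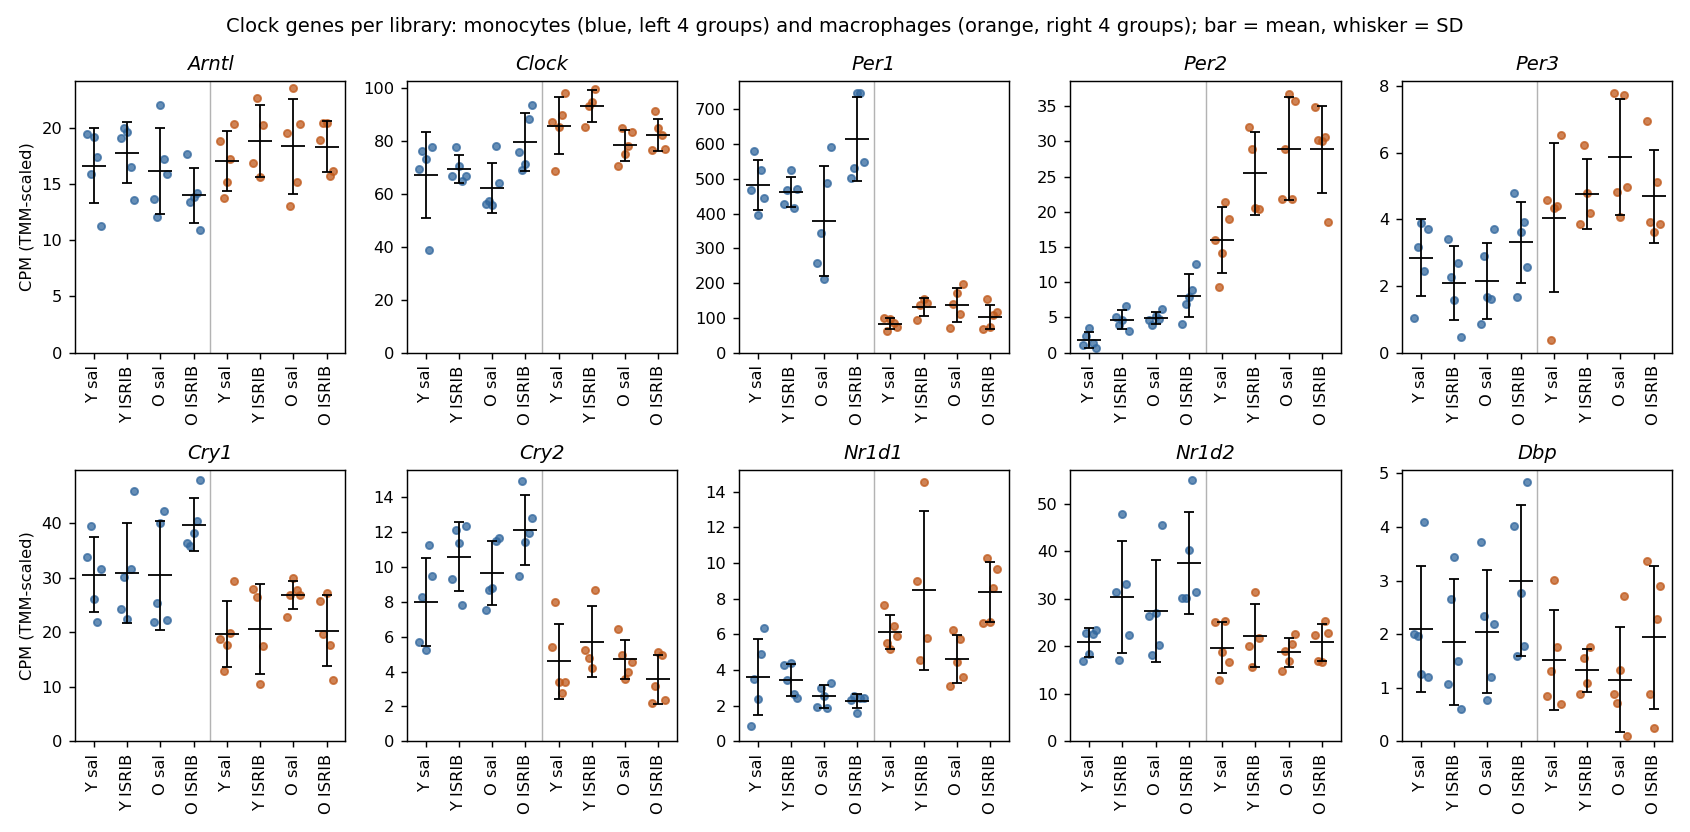
TMM-scaled CPM (vertical axes, linear, from 0, a separate scale per gene) of the 10 clock genes in each library, for the 4 monocyte groups (blue, Y young, O old, sal saline) and the 4 macrophage groups (orange); points are libraries, bars the group mean and whiskers the SD. Per1 sat between 212 and 747 CPM in monocytes and between 61.4 and 196 CPM in macrophages, while Per2 ran the other way.

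Macrophages and monocytes differed in 8 of the 10 clock genes, 4 higher and 4 lower in macrophages. Per2, Nr1d1, Per3 and Clock were higher in macrophages, and Per1, Cry2, Cry1 and Nr1d2 were lower. The comparison averaged the 4 age and treatment groups within each cell type and was tested with edgeR's quasi-likelihood test, with p-values adjusted by the Benjamini-Hochberg method over all genes; genes with an adjusted p under 0.05 were called. Most genes differed between these cells: 79.2% of 13587 genes were called, 39.9% higher and 39.2% lower in macrophages, so 8 calls among 10 is a share near the background. The clock genes had a median log2 change of -0.15, against -0.00 over all genes tested.

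The 3 Per genes, which encode repressors of the loop together with the Cry genes, split between directions. Per1 (ENSMUSG00000020893, chr11:69095217-69109960, GRCm38) averaged 484 ± 132 CPM in monocytes (SD, n = 20) and 113 ± 38.7 CPM in macrophages (SD, n = 19). Every monocyte library, from 212 CPM (median 478, highest 747), lay above every macrophage library, up to 196 CPM (lowest 61.4, median 107). The fitted log2 change was -2.09 ± 0.12 (SE, edgeR adjusted p = 7.35e-19), and the ratio of means was 4.28-fold lower in macrophages. Per2 (ENSMUSG00000055866, chr1:91415982-91459324) averaged 4.88 ± 2.81 CPM in monocytes (0.600 to 12.5, median 4.63) and 24.8 ± 7.86 CPM in macrophages (9.32 to 36.7, median 21.8). Of the 19 macrophage libraries, 18 lay above every monocyte library; the exception was young saline replicate 2. Its log2 change was 2.49 ± 0.15 (edgeR adjusted p = 9.89e-19), a 5.08-fold higher mean. Per3 averaged 2.599 ± 1.18 CPM in monocytes and 4.85 ± 1.70 CPM in macrophages, with a log2 change of 0.91 ± 0.23 (edgeR adjusted p = 4.66e-04); 9 macrophage libraries lay above every monocyte library and 1 lay below.

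Set against each other within a library, Per1 and Per2 gave a ratio per length that did not overlap between the cells. This largely restates the separate levels of the genes given above and is a description. Per1 exceeded Per2 by a median of 103-fold in monocytes (42.1 to 770) and 5.09-fold in macrophages (2.01 to 7.76). The highest monocyte ratio came from young saline monocytes, in which Per2 was between 0.600 and 3.53 CPM. Per2 had only 76 counts over the 5 libraries of that group, so its ratios are coarse.

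Both Cry genes, which encode the other repressors of the BMAL1 and CLOCK pair, were lower in macrophages. Cry2 averaged 10.1 ± 2.47 CPM in monocytes and 4.59 ± 1.73 CPM in macrophages, a log2 change of -1.12 ± 0.14 (edgeR adjusted p = 3.60e-09), with 15 of 19 macrophage libraries below every monocyte library. Cry1 averaged 32.9 ± 8.39 and 21.96 ± 6.26 CPM, a log2 change of -0.59 ± 0.12 (edgeR adjusted p = 3.72e-05), and 9 of 19 macrophage libraries lay below every monocyte library. Part of Cry2 (295 exon bases) lies opposite D930015M05Rik, and the strand setting of the counting is not given in the sources used here, so reads of this pair cannot be told apart.

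The REV-ERB genes went apart. Nr1d1 (ENSMUSG00000020889, chr11:98767932-98775333) averaged 2.96 ± 1.26 CPM in monocytes (0.842 to 6.35) and 6.82 ± 2.70 CPM in macrophages (3.11 to 14.5); the ranges overlapped, and 9 of 19 macrophage libraries lay above every monocyte library. Its log2 change was 1.20 ± 0.17 (edgeR adjusted p = 6.45e-08). Nr1d2 averaged 29.04 ± 10.8 CPM in monocytes and 20.3 ± 4.55 CPM in macrophages, a log2 change of -0.48 ± 0.12 (edgeR adjusted p = 4.66e-04). Per length, Nr1d2 exceeded Nr1d1 by a median of 6.20-fold in monocytes (2.10 to 14.7) and 1.87-fold in macrophages (0.941 to 3.58). Nr1d1 shares 263 exon bases with Thra on the opposite strand; Thra itself was lower in macrophages, with a log2 change of -0.58 (edgeR adjusted p = 5.16e-08), the opposite direction.

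Among the activators, Clock was higher in macrophages, at 84.6 ± 8.75 against 69.7 ± 12.1 CPM (log2 change 0.29 ± 0.06, edgeR adjusted p = 8.91e-05). Arntl (ENSMUSG00000055116, chr7:113207465-113314126) did not pass, at 18.1 ± 2.95 CPM in macrophages (13.1 to 23.5) and 16.1 ± 3.19 CPM in monocytes (10.9 to 22.01). Its log2 change was 0.17 ± 0.09 (edgeR adjusted p = 0.0749), with a 95% interval of -0.01 to 0.36. Its 8 group means lay between 14.01 CPM (old ISRIB monocytes) and 18.8 CPM (young ISRIB macrophages). The output gene Dbp did not pass either, at 1.49 ± 0.960 and 2.25 ± 1.21 CPM (log2 change -0.60 ± 0.31, edgeR adjusted p = 0.0735, interval -1.22 to 0.03). Dbp shares 539 exon bases with Sphk2 on the opposite strand. Sphk2 was also lower in macrophages, with a log2 change of -0.35 (edgeR adjusted p = 6.13e-06), the same direction as Dbp. The part of shared reads in the levels of Dbp and Nr1d1 was not tested. The 8 calls held in all 44 alternative fits; Arntl passed without any 1 of old saline monocyte replicate 3, old ISRIB monocyte replicate 1, young ISRIB macrophage replicate 3 and old saline macrophage replicate 2, with adjusted p from 0.0286 to 0.0484. Dbp passed with limma voom (adjusted p = 0.0405) and without any 1 of young saline macrophage replicate 3, old saline macrophage replicate 4 and old ISRIB macrophage replicate 1 (0.0271 to 0.0493).

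**Figure D2:**
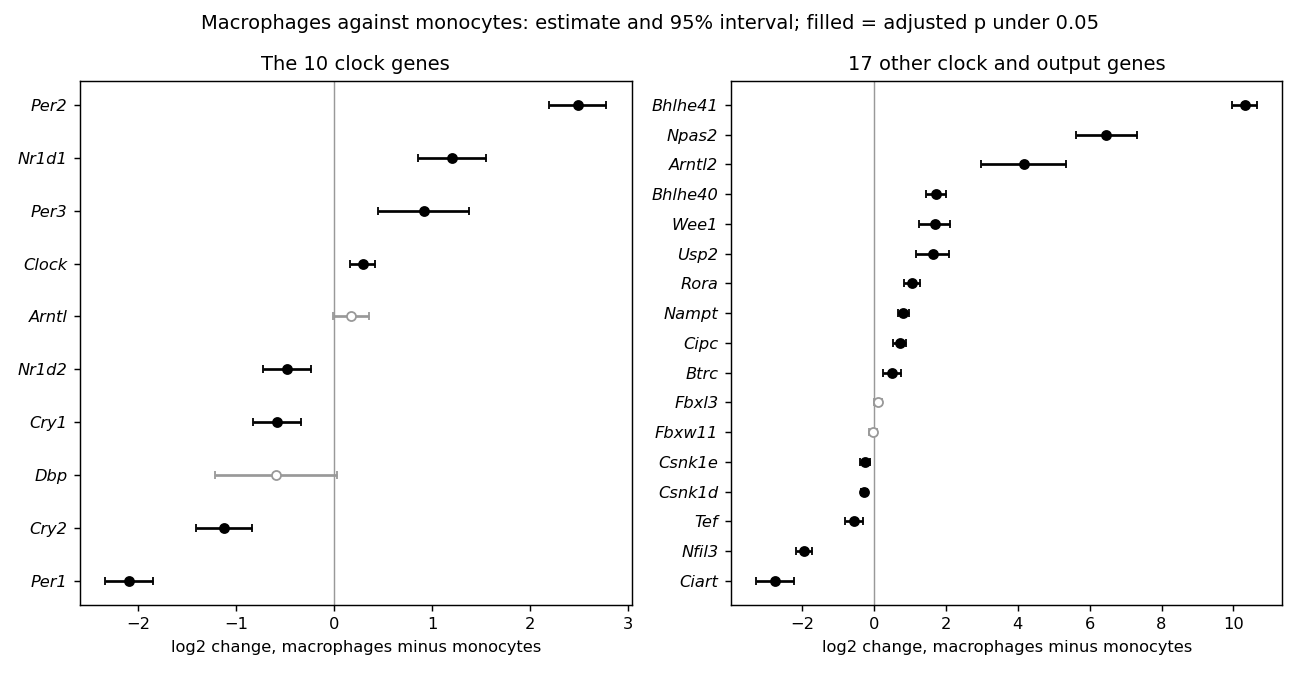
Fitted log2 change of macrophages minus monocytes (horizontal axis) with its 95% interval for the 10 clock genes (left) and 17 other clock and output genes (right); filled points have an adjusted p under 0.05. Per2 lies at 2.49 and Per1 at -2.09; the points of Bhlhe41, Npas2 and Arntl2 depend on the prior count, since these genes were near 0 in monocytes.

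A list of 21 other clock and output genes gave 17 that could be tested, of which 10 were higher and 5 lower in macrophages, against 79.2% of all genes called (39.9% higher, 39.2% lower). The 10 include Bhlhe41, Npas2 and Arntl2 (the last singled out after its values were seen), which passed the filter only through macrophages and therefore had to differ; the count is a description. Bhlhe41 and Bhlhe40 encode repressors that compete for E-boxes. Bhlhe41 had 58 counts over all 20 monocyte libraries (0.311 ± 0.408 CPM) and 38094 over the 19 macrophage libraries (239 ± 58.0 CPM); Bhlhe40 was at 101 ± 36.5 CPM in monocytes and 337 ± 53.1 CPM in macrophages (log2 change 1.72). Npas2, a relative of Clock, had 14 counts over the monocyte libraries and 948 over the macrophage libraries. Nfil3, a repressor at D-boxes, was lower in macrophages, at 95.9 ± 26.9 against 373 ± 119 CPM (log2 change -1.95), and Ciart, a repressor of the BMAL1 and CLOCK pair, was also lower, at 0.996 ± 0.729 against 6.01 ± 2.82 CPM (log2 change -2.76). Nampt, Rora and Cipc were higher, with log2 changes of 0.81, 1.06 and 0.71.

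Genes that also respond to the inputs shared by Per1 and Per2 were counted in the same comparison, where 39.2% of all genes were lower and 39.9% higher. Of 13 immediate early and heat shock genes, 12 were lower in macrophages and 0 higher, with a median log2 change of -1.71. Nr4a1 changed by -5.10, Btg2 by -2.28 and Zfp36 by -1.81. Nr4a1 is also on the list of nonclassical monocyte markers used above, so its change is not separate from that of the cell type. Their summed level was 8606 to 18419 CPM in monocytes and 2028 to 6471 CPM in macrophages. Of 10 glucocorticoid-induced genes, 6 were lower and 3 higher, a called share near that of all genes (79.2%), with a median of -1.02. Ddit4 changed by -5.92, Tsc22d3 by -1.31 and Zbtb16 by -4.04, while the 3 higher genes were Sgk1 (2.28), Mt2 (2.07) and Mt1 (1.04). Per1 was lower in macrophages and Per2 higher, with log2 changes of -2.09 and 2.49. The part of these inputs in the levels of Per1 and Per2 was not tested.

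The next question was whether clock genes changed with age. In saline macrophages 1 of the 10 was called, Per2, which was higher in old mice; over all genes 1.16% of 12171 were called, 0.937% higher. Per2 stood at 15.9, 9.32, 14.1, 21.4 and 19.03 CPM in the young saline libraries and at 21.8, 28.8, 36.7, 21.7 and 35.8 CPM in the old saline libraries. The groups did not overlap, but the highest young and the lowest old library were close. The means were 15.96 ± 4.66 and 28.97 ± 7.25 CPM (SD, n = 5 each), a log2 change of 0.86 ± 0.21 (edgeR adjusted p = 0.0375). The call was lost with limma voom, with all 39 libraries in one fit, and without any 1 of young saline replicates 1, 2 and 3 or old saline replicates 3 and 5, with adjusted p from 0.0573 to 0.144.

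Per1 was at 99.7, 61.4, 95.4, 84.0 and 73.4 CPM in young saline macrophages and at 71.1, 141, 171, 111 and 196 CPM in old saline macrophages. All old libraries but replicate 1 lay above every young one. Its log2 change was 0.74 ± 0.22 (edgeR adjusted p = 0.106), which did not pass; without old saline replicate 1 the adjusted p was 0.0192. Old saline replicates 3 and 5 had the highest Per1 and Per2 of the macrophages in this group, and also its highest summed immediate early and heat shock genes, 5853 and 6181 CPM. That sum was 2320 to 3787 CPM in young and 3364 to 6181 CPM in old saline macrophages, with 0 of 13 genes called (median log2 change 0.73). The replicates were picked after their values were seen, and a link of these genes to Per1 or Per2 was not tested. The other 8 clock genes had log2 changes between -0.42 (Dbp) and 0.52 (Per3), and 0 of them passed edgeR's test; 2 of the 10, Per1 and Per2, had an unadjusted p under 0.05, against 12.7% of all genes. DESeq2 called 1 of the 10 and limma voom 0.

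Other measures moved with age in the same macrophage libraries. In saline macrophages 1.16% of all genes were called with age, 0.937% higher, and the counts below stand against these shares. Of 8 B cell markers, 5 were called higher in old saline macrophages. The summed level of the 8 was 6.82 to 30.1 CPM in young and 23.03 to 428 CPM in old libraries, with no marker at 0 in all libraries of a group. Markers this low in young libraries may have passed the filter on low counts only through old ones, so the count is a description. T and NK cell markers summed to 5.12 to 7.96 CPM in young and 9.44 to 27.96 CPM in old saline libraries (1 of 8 tested called higher; Ncr1 was at 0 in the young group). Of 10 alveolar macrophage markers, 3 were called higher in old saline macrophages. Under ISRIB the B cell markers summed to 9.44 to 24.2 CPM in young and 153 to 593 CPM in old macrophages. The part of these markers in the Per2 result was not tested. Bhlhe41 was the 1 other clock gene called, higher in old saline macrophages at 273 ± 54.8 CPM against 174 ± 27.7 CPM (log2 change 0.65, edgeR adjusted p = 0.0164). Of the glucocorticoid-induced genes, 1 of 10 was called, Sgk1 (log2 change 0.48, edgeR adjusted p = 0.0266).

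In ISRIB-treated macrophages edgeR called 0 of 10 clock genes between old and young mice, against 0.937% of all genes (0.444% higher, 0.493% lower), and 0 had an unadjusted p under 0.05 (12.2% of all genes); DESeq2 and limma voom also called 0. Per2 was at 31.98, 28.8, 20.6 and 20.4 CPM in young and at 34.9, 30.1, 30.1, 30.6 and 18.5 CPM in old ISRIB macrophages. The groups overlapped fully, with a log2 change of 0.18 ± 0.22 (edgeR adjusted p = 0.827, interval -0.27 to 0.63). Averaged over both treatments, 1 of 10 was called, again Per2 (log2 change 0.52 ± 0.15, edgeR adjusted p = 0.0449), against 4.86% of all genes (3.12% higher, 1.74% lower); the call was lost in 14 of 25 alternatives, among them limma voom (adjusted p = 0.0598) and the fits without any 1 of young saline replicates 1, 2 and 3, young ISRIB replicates 3 and 4, replicates 3 and 5 of old saline mice, and replicates 1 to 4 of old ISRIB mice, with adjusted p from 0.0668 to 0.107. Under ISRIB, 2 of 10 glucocorticoid-induced genes were lower in old macrophages, Fkbp5 (log2 change -1.10, edgeR adjusted p = 0.0214) and Klf9 (-0.89, edgeR adjusted p = 0.0153). Fkbp5 was at 122, 61.3, 238 and 214 CPM in the young ISRIB libraries and at 64.8 to 86.3 CPM in the old ones.

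In monocytes edgeR called 0 of 10 clock genes with age: in saline (0.0247% of 12170 genes called), in ISRIB (0%) and averaged over both (0.123%, 0.0986% higher). In each of these, 1 of the 10 had an unadjusted p under 0.05, and it was Per2; over all genes the shares were 8.81%, 6.60% and 8.24%. Per2 stood at 1.16, 2.40, 3.53, 1.43 and 0.600 CPM in young saline monocytes and at 4.57, 3.93, 5.22, 4.77 and 6.17 CPM in old saline monocytes, so the groups did not overlap. The young saline values rested on 76 counts over 5 libraries, with 5 in the lowest, so they are coarse. The log2 change was 1.43 ± 0.37 (edgeR adjusted p = 0.232, interval 0.66 to 2.21). DESeq2 called it (adjusted p = 0.0410), as did the fit of all 39 libraries (0.0470), while limma voom did not. Under ISRIB, Per2 was at 5.13, 3.996, 4.69, 6.65 and 3.03 CPM in young and at 4.12, 6.95, 7.83, 8.83 and 12.5 CPM in old monocytes (log2 change 0.76 ± 0.35, edgeR adjusted p = 0.755; DESeq2 and limma voom called 0). Averaged over treatments its log2 change was 1.10 ± 0.26 (edgeR adjusted p = 0.119); DESeq2 gave 0.00760, a joint fit of both cell types 0.0114, and leaving out young saline monocyte replicate 3 gave 0.0316.

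Per2 was thus higher in old than in young saline libraries of both cell types, with no overlap in either, and which of them passed depended on the fit. The share of all genes without overlap was not counted in any comparison, so a lack of overlap only describes these libraries. Fitted apart, Per2 passed in macrophages and not in monocytes; in the fit of all 39 libraries it passed in saline monocytes (log2 change 1.40, edgeR adjusted p = 0.0470) and not in saline macrophages (0.86, edgeR adjusted p = 0.144). The difference between the age effects in the 2 cell types, averaged over treatments, was -0.56 ± 0.29 for Per2 (edgeR adjusted p = 0.454), and 0 of the 10 clock genes were called there, against 0.743% of all genes (0.449% higher); 0 had an unadjusted p under 0.05 (11.5% of all genes), and DESeq2 and limma voom called 0. Among the other clock genes Nr1d1 had a log2 change of -0.55 with age in monocytes, averaged over treatments (interval -1.14 to 0.04), and Arntl of -0.18 (interval -0.45 to 0.09). In macrophages the averaged age change of Arntl was 0.03 (interval -0.22 to 0.29) and that of Clock -0.15 (interval -0.29 to -0.02, edgeR adjusted p = 0.210).

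**Figure D3:**
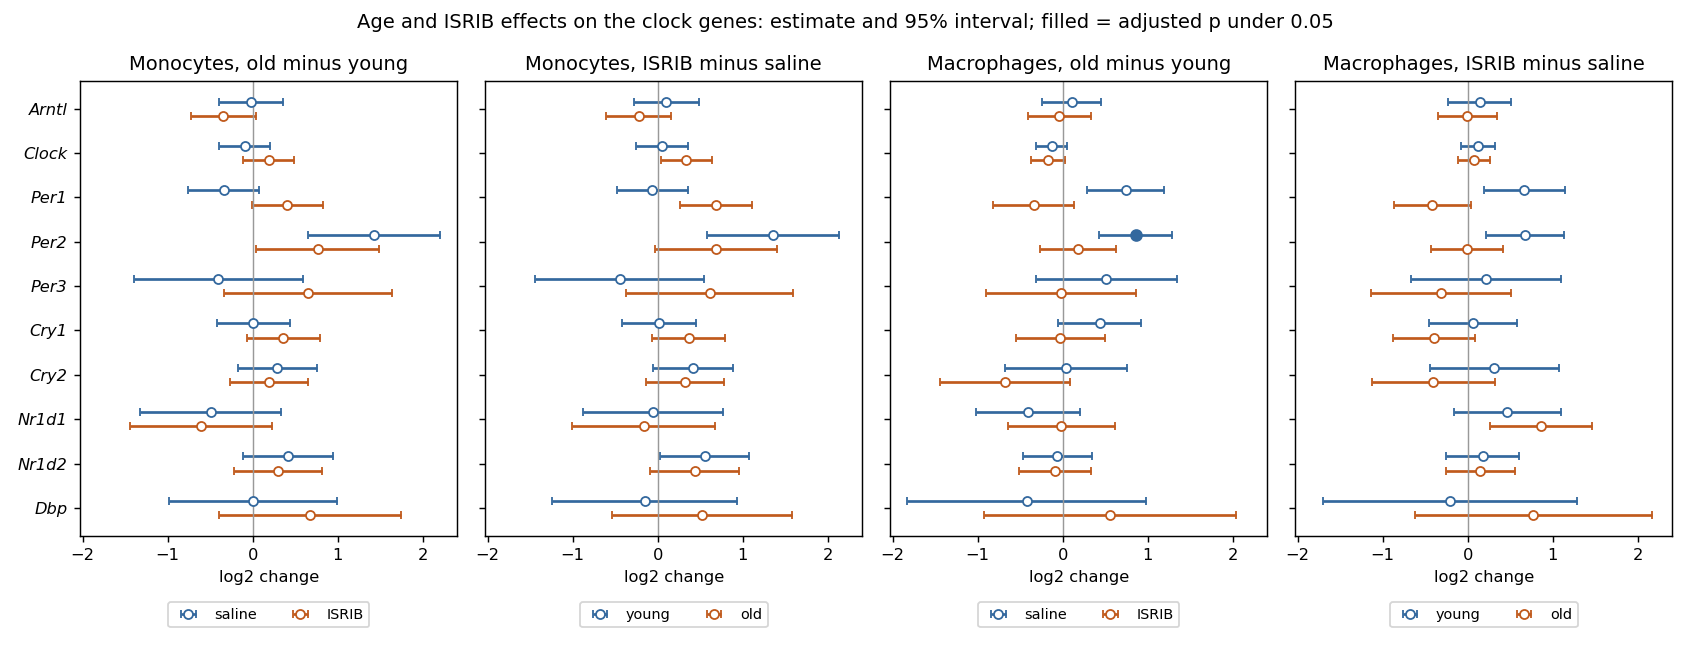
Fitted log2 change (horizontal axes) with its 95% interval for the 10 clock genes, from left to right for age and ISRIB in monocytes and for age and ISRIB in macrophages; colours give the treatment or the age at which the contrast was taken, and filled points have an adjusted p under 0.05. The only filled point is Per2 in old against young saline macrophages, at 0.86.

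The last comparison asked whether ISRIB changed the clock genes. In macrophages edgeR called 0 of 10 in young mice (0% of all genes called), 0 in old mice (0%) and 0 averaged over both ages (0.83%, 0.452% higher). Unadjusted p-values under 0.05 were seen for 2 of the 10 in young macrophages (Per1 and Per2), for 1 in old macrophages (Nr1d1) and for 2 in the average (Nr1d1 and Per2). Over all genes these shares were 12.4%, 9.14% and 16.6%. DESeq2 called 0, 0 and 1, and limma voom called 0 in each. Nr1d1 was at 3.11, 6.24, 4.44, 5.72 and 3.59 CPM in old saline macrophages and at 6.63, 10.3, 6.72, 8.60 and 9.66 CPM in old ISRIB macrophages. The groups did not overlap, and the log2 change was 0.86 ± 0.29 (edgeR adjusted p = 0.380, interval 0.26 to 1.46). The share of all genes without overlap was not counted here either. Young macrophages overlapped, at 7.62, 5.51, 5.19, 6.46 and 5.90 CPM with saline and 8.98, 4.55, 14.5 and 5.78 CPM with ISRIB. Averaged over ages, Nr1d1 had a log2 change of 0.66 ± 0.21 (edgeR adjusted p = 0.103; 0.0499 with DESeq2).

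Per1 in young macrophages was at 92.8, 137, 154 and 142 CPM with ISRIB, against 61.4 to 99.7 CPM with saline, a log2 change of 0.67 ± 0.23 (edgeR adjusted p = 0.227). In old macrophages Per1 was at 67.4, 153, 74.9, 107 and 116 CPM with ISRIB, inside the range of the saline libraries but for replicate 1, and the log2 change was -0.41 ± 0.22 (edgeR adjusted p = 0.585). The difference between these effects was -1.08 ± 0.32 (edgeR adjusted p = 0.845); 0 of 10 clock genes were called for that difference, against 0% of all genes, with 2 of the 10 (Per1 and Per2) at an unadjusted p under 0.05, against 5.10% of all genes, and 0 called by DESeq2 or limma voom. Immediate early and heat shock genes had a median log2 change of 0.47 in young and -0.41 in old macrophages, with 0 of 13 called in each. A link of these genes to Per1 was not tested. Per2 in young macrophages had a log2 change of 0.68 ± 0.22 (edgeR adjusted p = 0.194) and in old macrophages of -0.01 ± 0.20 (interval -0.43 to 0.41). Young saline macrophages had the lowest mean Per1 and Per2 of the macrophage groups. They were the baseline for both ISRIB in young mice and age in saline, so these changes are not independent.

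In monocytes edgeR called 0 of 10 clock genes for ISRIB in young mice, in old mice or in the average, and 0% of all genes in each; DESeq2 and limma voom called 0 in each as well. At an unadjusted p under 0.05 were 2 genes in young monocytes (Nr1d2 and Per2), 2 in old (Per1 and Clock) and 4 in the average (Per1, Nr1d2, Per2 and Cry2), against 6.65%, 7.54% and 7.49% of all genes. Per1 was at 257, 343, 212, 486 and 590 CPM in old saline monocytes and at 501, 530, 747, 746 and 547 CPM in old ISRIB monocytes. These groups overlapped through saline replicate 5, and the log2 change was 0.69 ± 0.20 (edgeR adjusted p = 0.439). In young monocytes Per1 was at 394 to 580 CPM with saline and 416 to 524 CPM with ISRIB (log2 change -0.06, interval -0.48 to 0.36). Per2 averaged 1.83 ± 1.16 CPM in young saline and 4.70 ± 1.35 CPM in young ISRIB monocytes (log2 change 1.35 ± 0.38, edgeR adjusted p = 0.645). The same young saline libraries, the lowest monocyte group in Per2, were the baseline of the age comparison in saline. The age and ISRIB changes of Per2 are therefore not independent. Arntl changed by -0.06 in the average (interval -0.33 to 0.21). For the difference of the ISRIB effect between ages in monocytes, and between the cell types, 0 of 10 were called (0% of all genes in each), 1 and 2 of the 10 had an unadjusted p under 0.05 (7.11% and 8.38% of all genes), and DESeq2 and limma voom called 0.

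In a running clock Arntl is known to move against Nr1d1 and Dbp. Each gene's log2 CPM was set against its group mean, and 5 pairs were compared across the libraries of each cell type, 10 comparisons in all. In macrophages Arntl and Nr1d1 had a Pearson r of -0.54 (permutation p = 0.0387, adjusted 0.387) and a Spearman rho of -0.52 (permutation p = 0.0550, adjusted 0.550) over 19 libraries; without the 2 libraries farthest from the median of Arntl r was -0.54. In monocytes the same pair had an r of -0.28 (permutation p = 0.341, adjusted 0.798) and a rho of -0.19 (permutation p = 0.477, adjusted 0.821) over 20 libraries, and r was -0.12 without the 2 farthest. Nr1d1 and Dbp, which peak near each other in a running clock, had an r of 0.03 in macrophages (permutation p = 0.906, adjusted 0.998) and 0.12 in monocytes (permutation p = 0.638, adjusted 0.798), with rho -0.06 and 0.21 (permutation p = 0.821 and 0.422, both adjusted 0.821). Arntl and Dbp had an r of -0.32 in macrophages (permutation p = 0.250, adjusted 0.798) and -0.00 in monocytes (permutation p = 0.998, adjusted 0.998), with rho -0.36 and 0.08 (permutation p = 0.159 and 0.760, adjusted 0.796 and 0.821). Per1 with Per2 and Arntl with Per3 had r between 0.10 and 0.31, and the highest, Arntl with Per3 in macrophages, was -0.01 without the 2 farthest libraries. None of the 10 passed the adjustment. These values rest on low counts of Nr1d1 (median 36 per library, 8 to 94) and Dbp, which limit any correlation that could be seen.

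**Figure D4:**
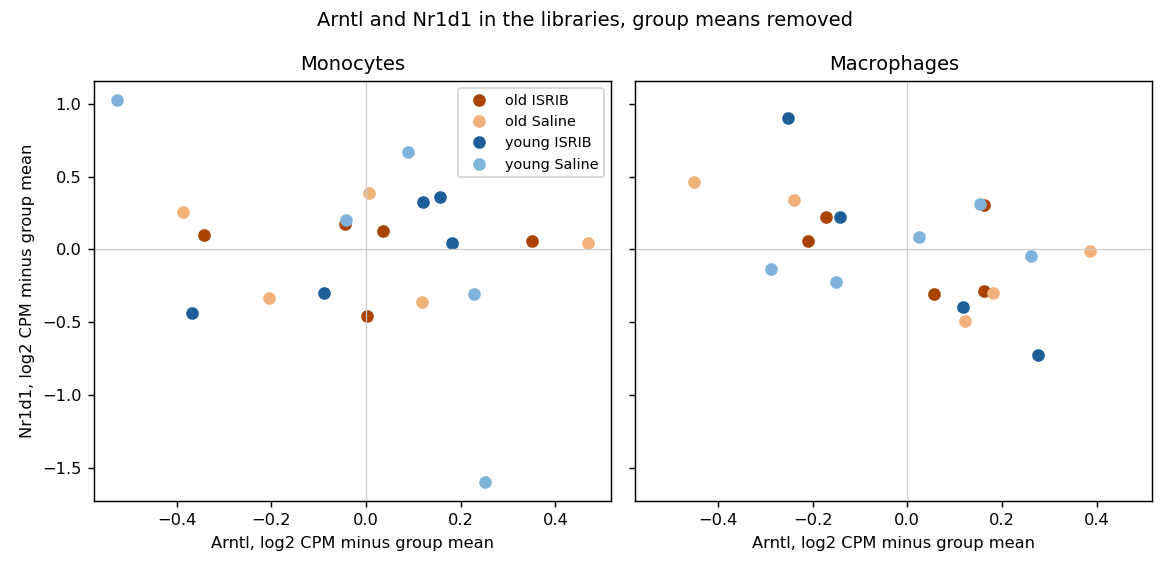
Log2 CPM of Nr1d1 (vertical axis) against that of Arntl (horizontal axis), each as the difference from the mean of its group, in 20 monocyte libraries (left) and 19 macrophage libraries (right); points are libraries, coloured by age and treatment. The macrophage points run downwards with r of -0.54, and the monocyte points are spread with r of -0.28.

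All 45 pairs of the 10 genes were then computed in each cell type, a step added after the data were seen. Of these 90, 11 had a permutation p under 0.05 and 1 passed the adjustment: Per2 with Cry1 in macrophages, with r 0.75 (permutation p = 4.70e-04, adjusted 0.0423) and rho 0.70 (permutation p = 0.00207, adjusted 0.186). Without the 2 libraries farthest from the median of Per2, r was 0.61. The same pair had an r of -0.04 in monocytes. The median r over pairs was 0.03 in macrophages and 0.07 in monocytes, and 50 of the 90 were above 0.

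**Figure D5:**
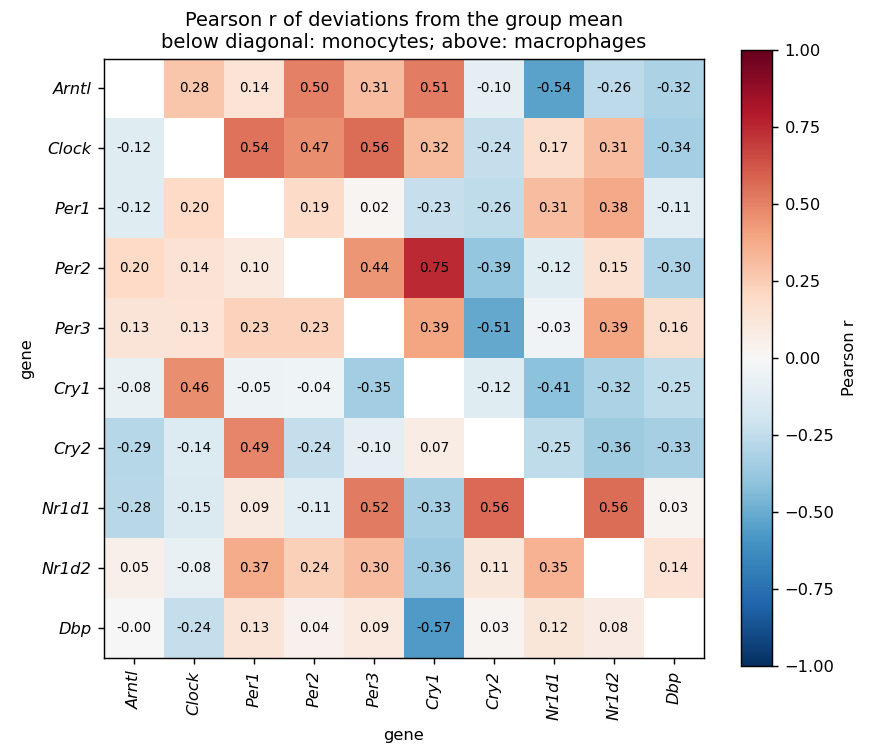
Pearson r between the deviations of each pair of clock genes from their group means, below the diagonal over 20 monocyte libraries and above it over 19 macrophage libraries; both axes list the genes and the colour scale runs from -1 to 1. Per2 and Cry1 in macrophages, at 0.75, is the highest value, and the lowest is -0.57, Cry1 and Dbp in monocytes.

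The genes whose deviations were most like those of Arntl were not clock genes. Among the 8428 genes that averaged 10 CPM or more, the highest r with Arntl in macrophages belonged to Pdpk1 (0.87), Wdr33 (0.82), Dedd2 (0.82), Rfx2 (0.82) and Dnajb1 (0.82), and the lowest to Selenof (-0.81), Atp5g3 (-0.80), Fcer1g (-0.78), Rnaseh2b (-0.78) and Npl (-0.77), over 19 libraries. In monocytes the 5 highest of 7952 genes were Dapp1 (0.75), Ciita (0.75), Klhl18 (0.75), Fbxo32 (0.75) and Zfp710 (0.73), and the lowest was Pak1ip1 (-0.77), over 20 libraries. The lists are the extremes of many values over shared libraries and are given as a description. The other clock genes were ranked from the highest r with Arntl among all 12170 genes in macrophages. Cry1 stood at 735, Per2 at 784, Per3 at 2325, Clock at 2589 and Per1 at 4249. Cry2 stood at 7678, Nr1d2 at 9647, Dbp at 10199 and Nr1d1 at 11739. Among 12169 genes in monocytes, Per2 stood at 2934, Per3 at 3905, Nr1d2 at 5284 and Dbp at 6317. Cry1 stood there at 7768, Per1 at 8497, Clock at 8530, Nr1d1 at 10788 and Cry2 at 10850.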

How the data were processed

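RNA was measured in 39 libraries. Per the labels' protocols, the authors started from 3 ng of RNA and selected polyA. Per the submitters' processing notes they used bcl2fastq 2.19.1, FastQC, Trimmomatic 0.36, STAR 2.6.0 and HTSeq 0.11.2 with mm10; for annotation version and strand setting nothing is stated. The deposited table holds raw integer counts by Ensembl ID. Symbols, coordinates and exon lengths came from GENCODE vM21 (GRCm38).

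Groups follow the labels. Genes were tested with edgeR 4.0.16 (R 4.3.3; TMM, filterByExpr with minimum count 10 and minimum total 15, quasi-likelihood test, Benjamini-Hochberg over all genes). Macrophages (12171 genes, biological coefficient of variation 0.206) and monocytes (12170, 0.258) were fitted apart, and the comparisons of cell types were taken from 1 fit of 39 libraries (13587, 0.246). Alternatives were DESeq2 1.42.0, limma 3.58.1 voom, other scaling and filters, and leaving out each library. For correlations, log2 CPM was computed with prior count 2, and p came from 100000 permutations within groups. The model code was tested on simulated data. No library pair within a group was a duplicate (76 pairs, chi-square per degree of freedom 7.07 to 53.5). Libraries with the same replicate number did not deviate together at the median, and the main fits did not treat them as pairs. All 10 clock genes were named whatever their values; from the other clock, glucocorticoid and immediate early lists, up to 8 called genes per comparison could be named, by adjusted p, and for Arntl and Dbp the 5 genes with the highest and the 5 with the lowest r. The genes and lists were chosen with earlier results of these data known.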

Additional observations from a re-analysis of the deposited data

Results flagged for a closer look

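In 3 of the 80 combinations of gene and group, 1 library stood far from the others of its group by Dixon's test; chance flags about 1 in 20. Clock was at 38.8 CPM in young saline monocyte replicate 4, where the nearest library was at 69.7 CPM. Dbp was at 4.09 CPM in the same library, the highest of its group, with the nearest at 2.00 CPM. That library was the shallowest, with 4595331 counts; without single libraries in turn and over the other alternatives, the log2 change of Clock between the cell types stayed between 0.26 and 0.32. Nr1d1 was at 1.57 CPM in old ISRIB monocyte replicate 3, with the nearest at 2.34 CPM.

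The age effect on Bhlhe41 differed between the cell types by a fitted -2.90 on the log2 scale (macrophages minus monocytes). Bhlhe41 passed the filter on low counts only through macrophages and was not tested in the fit of monocytes alone, so the test of this difference is void. In monocytes the value rested on 1 and 3 counts summed over the young saline and young ISRIB groups and 27 in each old group, and its size depends on the prior count. In macrophages the group means ran from 174 CPM (young saline) to 280 CPM (old ISRIB).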

How the results depend on the processing

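Of 491 alternative values of 18 counts (17 comparisons and the pairs), 459 equalled the original count or, where neither was 0, lay within a fixed ratio of it. The 8 calls between the cell types became 8 or 9. The 1 call with age in saline macrophages became 0 with limma voom, 0 with the replicate block, 0 in the fit of all 39 libraries, 2 without the low-count filter, and 0 to 2 when 1 library was left out. Averaged over treatments it became 0 with limma voom, 0 with the replicate block, 0 in the fit of all libraries and 0 to 1 when 1 library was left out. Counts of 0 became 2 for ISRIB in young macrophages and 1 for the difference of ISRIB effects between ages (Per1) without the low-count filter, and 1 (Nr1d1) with DESeq2 for ISRIB in macrophages averaged over ages. For age in monocytes they became 1 (Per2) with DESeq2 and 1 in the fit of all libraries, both in saline and averaged over treatments, and for the average 0 to 1 when 1 library was left out. The cause of these changes was not tested. No direction reversed for the clock genes followed. The pairs passing stayed at 0 without TMM and with a prior count of 0.5.

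At the median, libraries with the same replicate number did not deviate together (r -0.01 in monocytes and 0.00 in macrophages). Of the libraries, 2 of 20 and 7 of 19 were most like those of their own number. In macrophages 27 pairs shared a number and 108 did not. How many best matches arise without pairing was not counted, so a pairing of some macrophage libraries was not tested. With the replicate block the 2 age counts in macrophages went from 1 to 0. Depth limits Dbp, Per3 and Nr1d1, with medians of 14, 30 and 36 counts per library, so small changes of these genes were not detectable. It also limits Per2 in monocytes, with 870 counts over 20 libraries and 76 over the 5 young saline ones.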

Other observations

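The clock genes differed in how much they varied between libraries of the same group. In macrophages the biological coefficient of variation of Per1 was 1.92 times the trend at its abundance, a ratio larger than that of 98.9% of genes tested, and that of Cry1 was 1.34 times the trend (92.1%). In monocytes the ratios were 1.31 for Per1 (89.4%) and 1.32 for Nr1d2 (90%). Arntl and Clock lay below the trend in both cells, at 0.853 and 0.792 times in macrophages and 0.793 and 0.904 times in monocytes. These ratios were larger than those of 31% and 15.6% of genes in macrophages and of 28.6% and 51.3% in monocytes. Clock in monocytes was thus near the middle of all genes.

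Dbp deviated most like Amdhd2 (r 0.77), Cyb5a (0.76), Bscl2 (0.75), Tpgs2 (0.75) and Smox (0.74) in macrophages and most against Rspry1 (-0.86), as a description over 19 libraries.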
